A study of Camelus bactrianus with 10 samples.

Results

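Of the 2581 small RNAs listed for plasma exosomes of Bactrian camels, 1612 carried no miRNA name and were listed as predicted, with names that start with PC- and give an arm label, 5p or 3p. Exosomes are small vesicles that cells release into body fluids. The 102 predicted small RNAs described here are those at 10 or more normalized counts in at least 5 of the 10 libraries, chosen by their normalized counts without regard to the camels' group. They held 101 distinct sequences. The comparison group was 5 normal camels, weighing 452.3 to 492.8 kg, and the other was 5 thin camels, weighing 402.6 to 421.2 kg. Each camel gave 1 library, no animal received a treatment per the labels, and age and sex are not given there. The labels speak of 5 camels in each group, bled separately.

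MicroRNAs are cut from the stem of a hairpin transcript, and the 2 strands of the stem are called the 5p and the 3p arm. The mature strand guides silencing of messenger RNAs, mainly through its seed, bases 2 to 8 counted from its 5′ end. One hairpin gives several end variants, called isomiRs, which differ by a few bases at either end. Programs that search small RNA reads for new miRNAs ask whether the surrounding genome sequence could fold into a hairpin, and a fragment of another RNA can also meet that demand. A predicted name is therefore a candidate, and the table itself does not show that a hairpin is cut.

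Normal 4, normal 5 and thin 4 stood apart from the other libraries, and this touches most results below. The table's 54 entries named after miRNAs of a primate cluster on chromosome 19 (miR-512, miR-515 to miR-527 and a few others) made up 0.485% of normal 4 and 0.444% of normal 5, but nothing in normal 1 to 3 and thin 5 and at most 0.0103% elsewhere. Normal 4, normal 5 and thin 4 also had the finest steps between values relative to their totals, taken here as a sign of deeper sequencing. Red blood cell rows (9 of miR-451a, miR-486 and miR-144) made up 14.7% to 28.5% of normal and 7.75% to 14.9% of thin libraries. Hepatocyte miR-122 (4 rows) made up 1.54% to 11.6% of normal and 1.10% to 7.82% of thin libraries, and platelet and myeloid miR-223 and miR-126 (7 rows) 1.01% to 2.89% and 2.04% to 3.67%. Muscle and neuron rows (5 and 6) stayed at or below 0.110% of any library, and no marker row was at 0 in every library. The part of these sources in the levels of predicted small RNAs was not tested.

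Of the 14 longer members, those of 21 to 24 bases, 8 were near copies of a row that the same table lists under a miRNA name. They are printed in order of mean level, each followed by that row, because they show what these predicted entries consist of. Capitals mark the seed.
PC-3p-1992_4114: tGAATGGCaccttatgagtaga
efu-mir-506-p3_1ss14CA: tGAATGGCaccttatgagtag
PC-3p-3497_2065: cACTAGATtttgagctcctggaa
hsa-miR-28-3p_1ss10GT: cACTAGATtttgagctcctgga
PC-5p-6677_980: tTATAAAGcaacgagactgata
hsa-miR-340-5p_1ss12TC: tTATAAAGcaacgagactgatt
PC-3p-7267_888: tCCCTGTCctccaggagctcaga
ssc-miR-339-5p_R-2: tCCCTGTCctccaggagctc
PC-3p-18313_337: gCTGCGCTtggatttcgtttct
hsa-miR-191-3p_L-1R-1_2ss19CT20CT: cTGCGCTTggatttcgtttc
PC-5p-38191_158: tGTAAACAtcctcgactggaagta
mdo-miR-30a-5p_R+1: tGTAAACAtcctcgactggaagt
PC-3p-47827_121: aTTGTCACtttttggagtagaa
eca-miR-508-3p_L-2_1ss11CT: aTTGTCACtttttggagtaga
PC-3p-60696_89: tTCAACGGgtatttattgagcca
bta-miR-95_R-1: tTCAACGGgtatttattgagc

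In 7 of the 8 the named sequence lay whole inside the predicted one, which went on for 1 to 3 further bases at the 3′ end. PC-3p-18313_337 also began 1 base earlier at the 5′ end, so its seed is shifted against that of the miR-191-3p row, while the other 7 had the seed of their named row. PC-5p-6677_980 differed from the miR-340-5p row by T22A, counted from 1 at the 5′ end with the base of the named row first. With so few bases between them, reads may have been split between both rows of a pair, which makes each row's value uncertain. Among all 102 members, 15 or 14.7% had the seed of some named row, against 7.15% of the 1510 other predicted rows. The 15 were 8 of the 14 longer members and 7 of the 88 members of 18 to 20 bases. The prefixes name the species of the matched entry (hsa human, bta cow, ssc pig, eca horse, efu a bat, mdo an opossum, mmu mouse).

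PC-3p-1992_4114, the miR-506-like member, is the one among the 8 printed pairs whose predicted form outweighed the named row beside it. MiR-506 and miR-508 belong to an X-linked miRNA family that in human and mouse is mainly known from the testis. The predicted form was at 396, 268, 653, 423 and 356 normalized counts in normal 1 to 5 and at 140, 116, 218, 139 and 159 in thin 1 to 5. The shorter row was at 45.6, 51.9, 102, 63.7 and 55.7 in normal and at 36.2, 29.5, 50.8, 43.8 and 20.6 in thin camels. All 5 thin camels lay below all 5 normal camels for the predicted form, and the groups of the shorter row overlapped. Of the summed mean of both, the predicted form held 85.1%. The miR-508-like PC-3p-47827_121 held only 3.06% of the sum with its named row, with 5.68 to 25.5 normalized counts in normal camels and 0 to 48.1 in thin camels.

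PC-3p-3497_2065, which contains a miR-28-3p row (in human miR-28 lies in an intron of LPP), was at 249, 116, 143, 319 and 192 normalized counts in normal 1 to 5. It was at 270, 203, 190, 357 and 182 in thin 1 to 5, and the groups overlapped. Thin 4 and normal 4 were its highest libraries, and it held 34.9% of the sum with its named row. PC-5p-6677_980, close to miR-340-5p (in human from an intron of RNF130), was at 258 and 365 in normal 4 and normal 5 and at 57.7 to 125 in normal 1 to 3. In thin camels it was at 101 to 189, with thin 4 the highest. It held 6.38% of the sum with its named row, so the named form was the main one.

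PC-3p-7267_888, an extended miR-339-5p, was at 30.4 to 150 normalized counts in normal and 59.2 to 107 in thin camels, beside 6489 on average for its named row. PC-3p-18313_337, the miR-191-3p form (miR-191 lies in an intron of DALRD3 in human), was at 12.1 to 102 in normal and 23.2 to 85.7 in thin camels. PC-5p-38191_158, the longest member with 24 bases and an extended miR-30a-5p, was at 8.52 to 41.6 in normal camels. In thin camels it was at 117, 54.9, 38.8, 2.30 and 0 from thin 1 to thin 5, a wider spread than among normal camels. PC-3p-60696_89, an extended miR-95, was at 0 in normal 1, normal 2 and thin 3 and reached 41.1 in normal 5. None of these 7 had groups that stood apart.

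**Figure D1:**
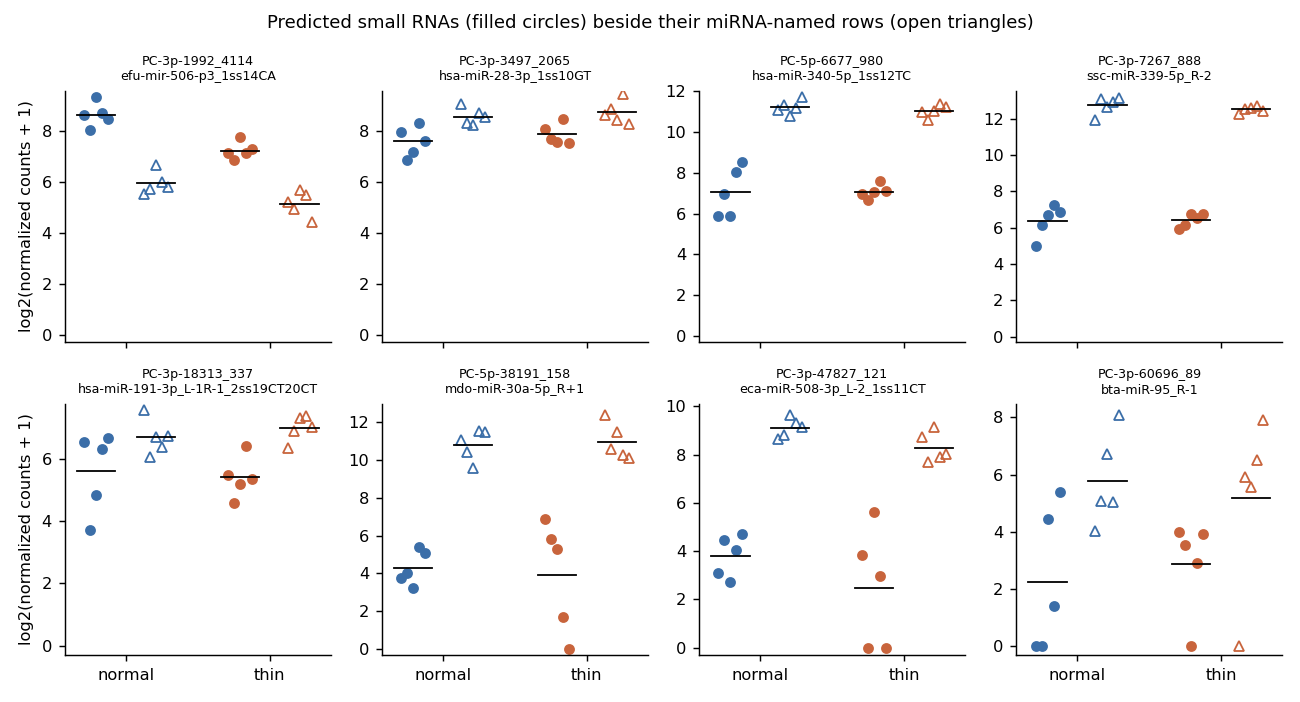
Each panel plots log2(normalized counts + 1) of 1 predicted small RNA (filled circles) and its miRNA-named row (open triangles) in 5 normal (blue) and 5 thin (orange-red) libraries, replicates 1 to 5 from left to right, with the group mean as a bar. Only in the panel of PC-3p-1992_4114 do all filled circles of thin camels (116 to 218 normalized counts) lie below those of normal camels (268 to 653).

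The other 6 longer members had no named row within 2 edits or with a shared run of 16 bases, and PC-3p-2882_2633, of 21 bases, was the most abundant of them. Among the 88 shorter members, 2 had such a row. PC-5p-3390_2140, of 20 bases, extended rows named miR-5124a by 1 and 2 bases at the 3′ end, and PC-3p-49301_117, of 19 bases, differed from a row named mir-5119 by A4G and T7G, written as above. PC-5p-3390_2140 was at 412 normalized counts in normal 4 and at 44.7 to 225 in the other libraries. Among the members themselves, 4 pairs shared a run of at least 16 bases. PC-5p-47435_122 and PC-3p-47435_122 were the same 19 bases with the same value in every library, listed once for each arm, so they are 1 measurement. PC-5p-70409_73 with PC-3p-35345_173, PC-5p-22828_273 with PC-5p-4114_1722, and PC-5p-25085_248 with PC-5p-66014_80 each shared 17 bases.

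Most members were shorter than a usual mature miRNA. There were 37 of 18 bases, 46 of 19, 5 of 20, 3 of 21, 7 of 22, 3 of 23 and 1 of 24, so that 86.3% had 18 to 20 bases. The share was 85.6% among other predicted rows and 17.8% among the 366 tested rows with a miRNA name, whose commonest length was 22. Members were rich in G, with 35.1% on average against 24.8% in tested named rows and 35.7% in other predicted rows. Their median content of G and C was 55.6%, against 52.6% in other predicted and 45.5% in tested named rows. The extremes were PC-3p-31063_199 with 85.0% and PC-5p-62216_86 with 31.6%.

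The first base, which in mature miRNAs is often T (U in the RNA), was A in 40, T in 25, G in 23 and C in 14 members. T led 7 of the 14 longer members, 20.5% of the 88 shorter ones and 45.1% of the tested named rows. A led 42.0% of the shorter members. The arm label was 5p for 55 members and 3p for 47. It was 5p for 51 of 88 shorter and 4 of 14 longer members. The split of lengths at 21 bases was made after the lengths were seen, and the differences in composition are descriptions without a test. The sequences of the shorter members are not printed because their origin was not settled here: read by eye, many resemble fragments of bacterial large subunit ribosomal RNA, but no ribosomal or microbial reference was used and the resemblance was not tested. If it holds, their levels and shares would not be those of camel miRNAs. Per the labels' protocols the reads of ribosomal, transfer, small nuclear and small nucleolar RNA were filtered out, and whether fragments of such RNAs, of the camel or of microbes in the samples, remain among the shorter members was not tested.

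**Figure D2:**
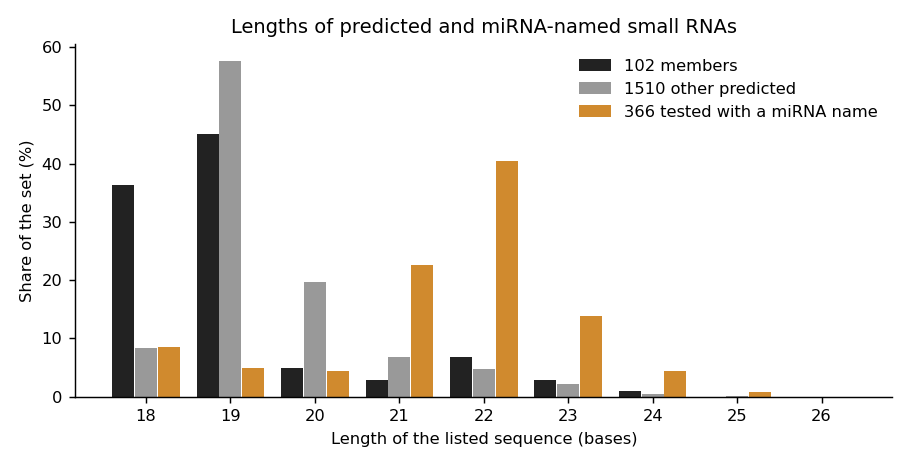
Bars give the share of each set, in percent, at each length of the listed sequence in bases, for the 102 members, the 1510 other predicted rows and the 366 tested rows with a miRNA name. Predicted rows peak at 19 bases (45.1% of members) and named rows at 22 (40.4%).

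The levels chose the members and are given as a description. The mean over 10 libraries ran from 8.50 to 6180 normalized counts with a median of 41.7, against a median of 109 for tested named rows, and PC-3p-203_38209, PC-5p-1072_8002 and PC-3p-2882_2633 had the highest means. PC-3p-203_38209, the most abundant, is of 19 bases with 63.2% G and C. It was at 3602, 27672, 4836, 573 and 433 normalized counts in normal 1 to 5 and at 1301, 11736, 6322, 1787 and 3539 in thin 1 to 5. Normal 2 and thin 2 were its highest libraries, and normal 4 and normal 5 its lowest.

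PC-5p-1072_8002, of 18 bases, was at 930, 4084 and 1015 normalized counts in normal 1 to 3 and listed at 0 in normal 4 and normal 5. In thin 1 to 5 it was at 1398, 2547, 951, 248 and 1003. The lowest values listed for any predicted row in normal 4 and normal 5 were 0.825 and 0.829, below those of the other 8 libraries. PC-3p-2882_2633 was at 926, 2756, 842, 76.9 and 95.2 in normal 1 to 5 and at 2582, 1498, 959, 396 and 1408 in thin 1 to 5. Again normal 4 and normal 5 were the lowest, followed by thin 4.

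PC-3p-2222_3581, with 84.2% G and C, ran from 53.4 in normal 5 to 3505 in normal 2, and in thin camels from 373 in thin 4 to 2169 in thin 2. PC-5p-1427_5930 ran from 99.7 in normal 4 to 2505 in normal 2, and from 100 in thin 4 to 1314 in thin 2. The next 5 by mean were PC-3p-3252_2260, PC-3p-4040_1757, PC-5p-4877_1413, PC-3p-2961_2546 and PC-5p-4114_1722, with means of 476 to 310 normalized counts. In the normal group, normal 2 was the highest library of all 10 most abundant members, and either normal 4 or normal 5 the lowest.

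The same order of libraries ran through the shorter members. Their median level was 44.9, 96.9, 31.7, 3.80 and 7.63 normalized counts in normal 1 to 5 and 41.1, 64.3, 59.5, 13.4 and 50.8 in thin 1 to 5. Normal 4 and normal 5 were both below every other library, or equal to the lowest, for 54 of 88 shorter members (61.4%), 1 of 14 longer members and 17 of 366 tested named rows (4.64%). Normal 4, normal 5 and thin 4 all lay below the mean of the other 7 libraries for 82 of 88 shorter members (93.2%), against 1 of 14 longer members and 19.9% of tested named rows. Normal 2 was the highest of all libraries for 49 shorter members. It raises the mean of the other 7 there, so further libraries can lie below that mean too. The longer members did not follow this order: their medians were 32.3, 20.8, 20.4, 59.3 and 43.8 in normal 1 to 5 and 51.8, 45.4, 37.4, 38.0 and 34.9 in thin 1 to 5. As exosomal RNA was measured in bulk, fewer vesicles carrying a small RNA and less of it per vesicle cannot be told apart. The origin of the shorter members was not settled, and whether their levels reflect the content of vesicles at all was not tested.

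Of the 102 members, 54 were above 0 in every library and 31 were at 10 or more in all. Of the 48 with at least 1 value of 0, 25 were at 0 in both normal 4 and normal 5, and all 25 were shorter members. PC-3p-67089_78 was at 0 in 5 libraries, the most of any member, and PC-5p-66014_80 had the largest ratio of its highest library to its median, 11.8. The ratio was 11.0 for PC-3p-60479_90, 10.1 for PC-3p-2961_2546, 8.72 for PC-3p-51507_111 and 7.75 for PC-3p-203_38209. At the edge of the rule, PC-5p-77216_64 had a 5th highest value of 10.1, and PC-5p-70388_73 and PC-5p-89227_52, outside it, had 9.87. With 20 normalized counts asked for in place of 10 there would be 69 members, and with 5 there would be 140.

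**Figure D3:**
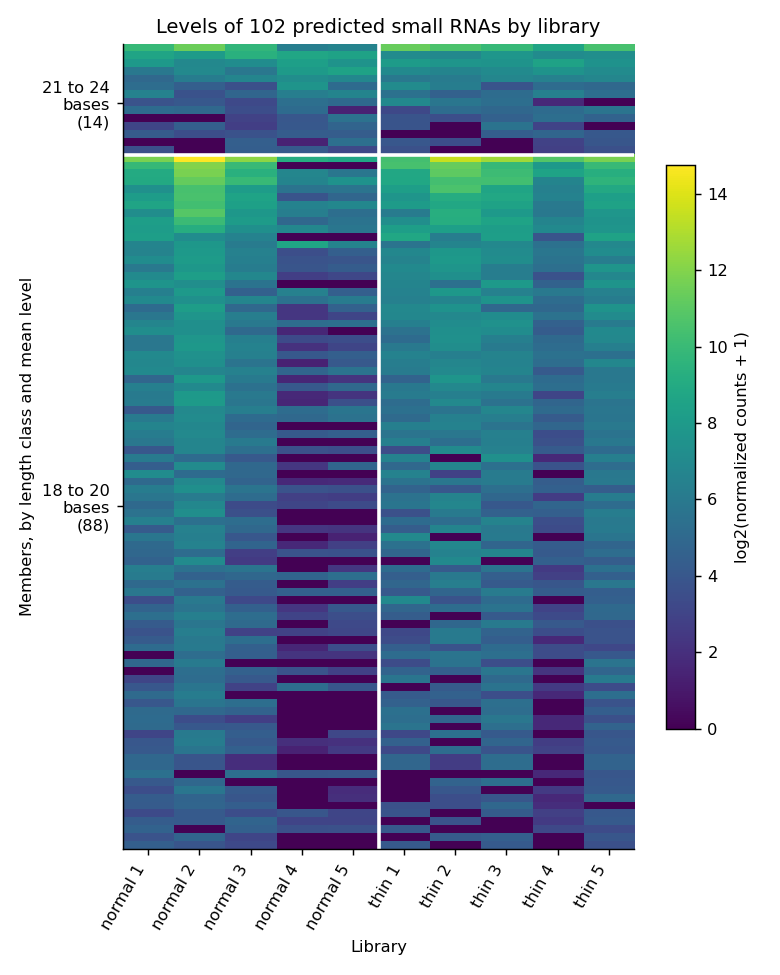
Each row is 1 of the 102 members and each column 1 library, with color for log2(normalized counts + 1); the white lines part the 14 members of 21 to 24 bases from the 88 of 18 to 20 and normal from thin libraries. In the lower block normal 4, normal 5 and thin 4 are darker than the other columns. Of the 88, 32, 26 and 13 are at 0 in these libraries, beside 11 in thin 2 and 9 in thin 1. None of the 14 longer members is at 0 in normal 4, normal 5 or thin 4.

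As a share of the library total, all members together made up 2.02%, 8.34%, 1.83%, 0.539% and 0.449% of normal 1 to 5 and 1.77%, 5.50%, 3.06%, 0.834% and 2.31% of thin 1 to 5. The mean share was 2.64 ± 3.27% for normal camels and 2.69 ± 1.77% for thin ones (SD over 5 libraries each), and the groups overlapped widely. PC-3p-203_38209 alone made up 4.06% of normal 2, 2.20% of thin 2 and 0.0583% to 1.04% of the other libraries. Members labelled 5p made up 0.206% to 2.11% and those labelled 3p 0.243% to 6.23%.

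The 88 shorter members carried this variation, from 0.256% in normal 5 to 7.84% in normal 2. The 14 longer members made up 0.193% to 0.506% of normal and 0.209% to 0.511% of thin libraries. Named rows of 18 to 20 bases made up 3.50% in thin 4 to 6.73% in normal 2, with 4.32% in normal 1, 4.96% in normal 4 and 5.64% in normal 5. Named rows of 18 or 19 bases also varied less than the shorter members, from 0.540% in thin 4 to 1.61% in normal 2. They were at 0.628% in normal 4 and 0.614% in normal 5. Without normal 4 and normal 5 the mean share of all members in normal camels was 4.06%, and without normal 2 it was 1.21%. Which of the 2 groups had the larger mean share thus rested on single libraries.

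**Figure D4:**
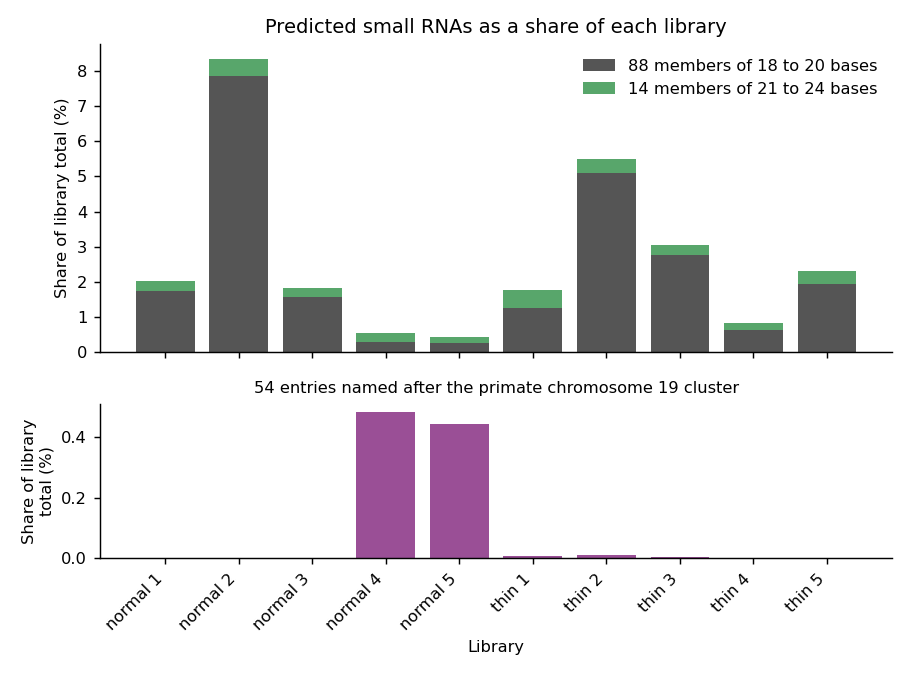
The upper bars give the share of each library total, in percent, held by the 88 shorter (gray) and 14 longer (green) members, and the lower bars that of the 54 entries named after the primate chromosome 19 cluster. Normal 2 and thin 2 stand highest in the upper plot with 8.34% and 5.50%, while normal 4 and normal 5 are lowest there and hold nearly all of the lower plot.

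Whether members differed between thin and normal camels was tested with limma on log2(normalized counts + 1), fitted and adjusted by the Benjamini-Hochberg method over all 468 small RNAs at 10 or more in 5 libraries. Each fold change sets thin against normal camels, positive where thin are higher, and the added 1 shrinks the changes of small RNAs at low levels. No member met the rule through the 5 libraries of 1 group alone, so none had to differ by the way it was chosen. PC-3p-1992_4114, the miR-506-like form, fell from 419 ± 143 normalized counts in the normal group to 154 ± 38.7 in the thin group (SD over 5 libraries each). The log2 fold change by limma was -1.41 with a standard error of 0.31 and an adjusted p of 0.0294. It was 1 of 102 members called, against 9 of all 468 tested (1.92%), with 6 up (1.28%) and 3 down (0.641%) in thin camels. It was also the only member whose groups did not overlap, against 17 of 468 (3.63%). Among these 17, the thin camels were above all normal camels for 10 (2.14%) and below them for 7 (1.5%).

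The size of the difference for PC-3p-1992_4114 moved little when libraries were left out, while its adjusted p often missed the threshold. Without normal 4 and normal 5 its log2 fold change was -1.44 and its limma adjusted p 0.172. It passed without normal 2 or thin 3, and with any other single library left out the adjusted p was 0.0508 to 0.103. Over all 10 such fits its log2 fold change stayed between -1.55 and -1.23. Its shorter form, the mir-506-p3 row, was fitted by limma at -0.81 ± 0.43 (SE) on the log2 scale, with an adjusted p of 0.569, so the lower value in thin camels passed the test for the predicted form alone. The difference between the 2 forms was not tested. The other 7 near copies had log2 fold changes from -1.33 for PC-3p-47827_121 to 0.62 for PC-3p-60696_89. The named rows printed with them ran from -0.82 for miR-508-3p to 0.30 for miR-191-3p, and none of either passed the threshold. Other miR-339 rows close to PC-3p-7267_888 went further. By limma, hsa-miR-339-5p_1ss22CA had -2.06 (adjusted p 0.460) and hsa-miR-339-5p_R-1_1ss22CT had 0.39 (adjusted p 0.721).

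For the 10 members that followed by p, none of which passed, the limma adjusted p was 0.460 to 0.603. PC-5p-70409_73 was at 5.68 to 36.3 normalized counts in normal and 17.1 to 106 in thin camels, with a fitted log2 difference of 1.45 ± 0.69 (SE). PC-5p-55417_101 was at 0 to 43.0 in normal, at 2.30 in thin 4, at 14.3 in thin 5 and at 0 in thin 1 to 3, with -2.62 ± 1.27. PC-5p-38678_156, of 22 bases, was at 0, 0, 6.63, 14.9 and 46.4 in normal 1 to 5 and at 13.2, 10.5, 22.7, 39.6 and 23.8 in thin 1 to 5, with 1.88 ± 1.10. In these 3 the groups overlapped, and in PC-5p-38678_156 the 2 highest normal libraries were normal 4 and normal 5. With both left out, limma gave it 3.40 ± 1.07 (SE) with an adjusted p of 0.218. The remaining 7 were PC-5p-62216_86, with -1.79, and 6 with positive log2 fold changes, PC-5p-41678_143 (1.58), PC-5p-18383_336 (1.66), PC-3p-77755_64 (1.93), PC-5p-68172_76 (1.995), PC-5p-15229_403 (2.21) and PC-5p-1072_8002 (3.55). With normal 4 and normal 5 left out, the values of these 6 were, in the same order, 0.052, 0.092, 1.52, 0.48, -0.23 and -0.70, so 5 of the 6 were at or below 0.48. PC-5p-62216_86 was then at -2.34, PC-5p-70409_73 at 1.22 and PC-5p-55417_101 at -2.47.

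Of all members 77 had a positive and 25 a negative log2 fold change, with a median of 0.58, beside -0.01 over all 468 tested. The shorter members had a median of 0.62 and the longer ones 0.02. None of the 88 shorter members passed, with limma, the adjusted threshold or an unadjusted p of 0.05, which 55 of all 468 tested reached (11.8%). Without normal 4 and normal 5 the median of all members was -0.52, with 22 positive and 80 negative values, beside -0.09 over all tested. In that fit 57 members had changed from a positive to a negative value, of which 56 were shorter ones, and 2 from negative to positive. The median of the shorter members was then -0.58 and that of the longer ones 0.33. Without normal 4, normal 5 and thin 4 the median of all members was -0.19.

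Without normal 4 and normal 5 no member passed with limma, and 4 had an unadjusted p of at most 0.05, against 3 of 468 (0.641%) and 46 of 468 (9.83%) of all tested. The sign for most shorter members thus changed with those 2 libraries. Both fits share the 5 thin libraries and normal 1 to 3, so their values are set side by side and not as separate evidence. The spread within a group was also larger for members than for named rows. The median SD of log2 values among normal camels was 2.13 for shorter members, 1.25 for longer ones and 0.68 for tested named rows, and among thin camels it was 1.30, 0.98 and 0.67. Over normal 1 to 3 alone it was 1.05, 0.89 and 0.60.

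**Figure D5:**
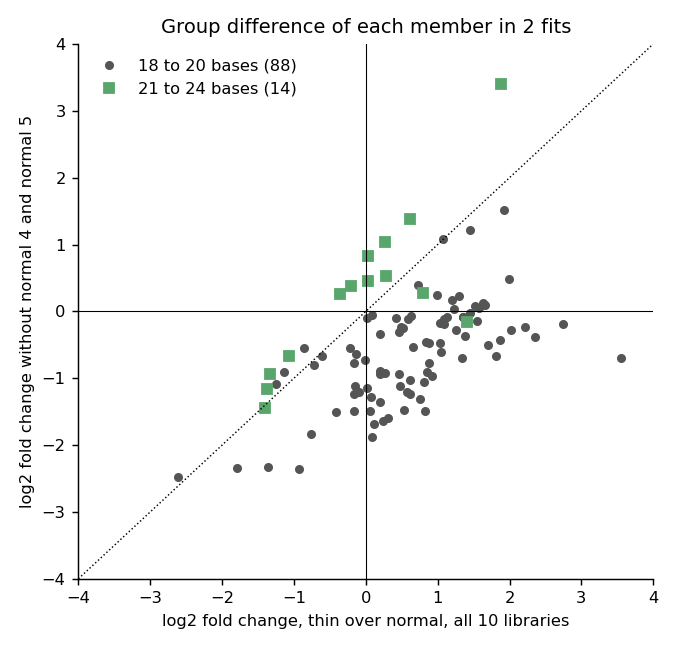
Each point is 1 member, with its log2 fold change of thin over normal from all 10 libraries on the horizontal axis and without normal 4 and normal 5 on the vertical axis; the dotted line marks equal values. Most gray points (88 shorter members) lie right of 0 and below 0, while the green squares (14 longer members) lie near or above the dotted line except for PC-3p-2882_2633, with 1.40 and -0.16, and PC-5p-48369_120, with 0.79 and 0.28.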

How the data were processed

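Per the labels' protocols, exosomes were pelleted from plasma by ultracentrifugation, RNA was extracted with a mirVana kit, libraries were made with a TruSeq small RNA kit, and reads were cleaned with ACGT101-miR. No mapping reference, miRBase version or prediction setting is given in the sources used here. The protocol text speaks of 9 libraries while 10 are labelled, which was not settled. The authors deposited a signal per small RNA and camel that the file headers call normalized counts; the scaling behind them is not described. Totals ran from 532999 to 757352. Low values of a library were multiples of 1 step (tolerance 0.02 of a step), and totals were 505263 to 4474902 steps, the most in normal 5, normal 4 and thin 4. Of the positive values, all of predicted rows and 95.4% to 98.2% of miRNA-named rows per library were whole multiples of the step. The rest were not, and whether 1 read is worth 1 or 2 steps was not settled, so no count test was run. Beside the 2581 rows, the table held 2 lines without values.

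The values were used as deposited. Rows at 10 or more in at least 5 libraries entered limma 3.58.1 (R 4.3.3) on log2(value + 1) with a mean trend, checked on simulated data. Alternatives were other pseudocounts, filters, scalings, a common floor, a replicate block and libraries left out. The replicate numbers of the labels were not taken as pairs: deviations of same-numbered libraries correlated between -0.20 and 0.52. For numbers 2 (0.25) and 4 (0.52) the normal library correlated best with the thin library of its own number, and for 1, 3 and 5 it did not. Whether libraries of the same number share a batch was not tested. Members named are the called one, the 10 most abundant, the 10 with the next smallest p, the 5 most uneven, near copies of other rows, and the extremes in length, composition, number of 0 values and threshold. The members, lists and tests were chosen with earlier results of these data known, and any other member is named with its values already in view. Python 3.11.15, numpy 2.4.6, pandas 2.3.3 and matplotlib 3.10.9 were used.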

Additional observations from a re-analysis of the deposited data

Results flagged for a closer look

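In 13 of 56 groups of 5 libraries examined, 1 library lay far from the other 4. Its gap to the nearest was then over 0.71 of the group's range. For normally distributed values, chance alone marks about 1 in 20 groups. The rule was applied to values that were not on a log scale, so that rate need not hold here. Members that move together are also not independent. Normal 2 was the far library in 10 of the 13. It held 8.34% of its total in the members, and 27672 normalized counts of PC-3p-203_38209, 4084 of PC-5p-1072_8002, 3505 of PC-3p-2222_3581, 1427 of PC-3p-3252_2260, 1446 of PC-3p-4040_1757, 1235 of PC-5p-4877_1413, 1840 of PC-3p-2961_2546, 1048 of PC-5p-4114_1722 and 119 of PC-5p-41678_143. Thin 2 was highest for PC-3p-3252_2260, with 1527. Thin 5 was highest among thin camels for PC-5p-55417_101, with 14.3, and thin 3 for PC-3p-47827_121, with 48.1.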

How the results depend on the processing

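The number of all tested small RNAs called, 9, was 15 with no filter, 4 without a mean trend, 3 without normal 4 and normal 5, 5 without the 3 deepest libraries, and 6 to 11 with 1 library left out. The number of members called, 1, was 0 with equal library totals, without a mean trend, after trimmed mean rescaling, without normal 4 and normal 5 and without the 3 deepest libraries, and 0 to 1 with 1 library left out. With no filter the call was PC-5p-1072_8002 (3.55, limma adjusted p = 8.82e-07) and no longer PC-3p-1992_4114 (adjusted p = 0.476). The mean of PC-5p-1072_8002 was 1206 for the normal group and 1229 for the thin group, and the groups overlapped. In the main limma fit its 3.55 had a standard error of 2.17 and an adjusted p of 0.603. Its log2 fold change was 2.23 with a pseudocount of 10. It was -0.70 without normal 4 and normal 5, its libraries listed at 0. With the replicate block the number of members called was still 1, and PC-3p-1992_4114 had a limma adjusted p of 0.0343. The block changed no call of a named member. A common floor of 10 steps of the shallowest library (10.55 normalized counts), chosen after seeing the data, also left 1.

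The median log2 fold change of members turned to -0.52 without normal 4 and normal 5 and -0.19 without the 3 deepest libraries, and was 0.14 to 1.12 with 1 library left out. The mean share of members, thin minus normal, was 0.0594 percentage points, -1.37 without normal 4 and normal 5, and -0.643 to 1.49 with 1 library left out. Without normal 4 and normal 5 the sign changed for PC-3p-203_38209 (-1.12), PC-5p-1072_8002 (-0.70), PC-3p-2882_2633 (-0.16), PC-3p-2222_3581 (-0.47), PC-5p-1427_5930 (-0.92), PC-3p-3252_2260 (-0.12), PC-3p-4040_1757 (-0.96), PC-5p-4114_1722 (-0.93), PC-5p-15229_403 (-0.23), PC-3p-18313_337 (0.38) and PC-5p-38191_158 (0.25). Without the 3 deepest libraries it changed for PC-3p-203_38209 (-0.87), PC-5p-1072_8002 (-0.21), PC-3p-2222_3581 (-0.21), PC-5p-1427_5930 (-0.30), PC-3p-4040_1757 (-0.57), PC-5p-4114_1722 (-0.63), PC-3p-18313_337 (0.13) and PC-5p-38191_158 (0.81). Equal library totals moved the median of all tested to 0.17 and turned PC-5p-4877_1413 to 0.035 and PC-3p-2961_2546 to 0.095, and a pseudocount of 10 turned PC-5p-38191_158 to 0.21.

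With 1 library left out, log2 fold changes that changed sign ranged from -0.18 to 1.32 (PC-3p-203_38209), -0.29 to 0.88 (PC-5p-1427_5930), -0.55 to 0.38 (PC-5p-4877_1413), -0.63 to 0.75 (PC-3p-2961_2546), -0.15 to 1.13 (PC-5p-4114_1722), -0.27 to 0.39 (PC-5p-6677_980), -0.33 to 0.24 (PC-3p-7267_888), -0.68 to 0.059 (PC-3p-18313_337) and -1.10 to 0.62 (PC-5p-38191_158). Where other causes are not stated, the cause was not tested. The depth limits low members: the lowest listed value of a predicted row was 0.825 in normal 4 and 6.58 in thin 1, so a 0 is not absence.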

Other observations

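The number that ends the name of each predicted small RNA can be set beside its values. Of 1150 predicted rows above 0 in a single library, 1086 (94.4%) held exactly 2 steps per unit of that number, within 0.1 of a step. Of 3197 positive values of predicted rows, all were whole multiples of their library's step and 52 were odd multiples. Among the rows with a miRNA name, 81.2% to 84.5% of whole multiples were even. Whether 1 read is worth 1 or 2 steps was not tested, so totals in steps are not read counts. For the 102 members the ratio of summed steps to the number in the name ran from 1.23 to 12.1 with a median of 3.18, and 7 members had exactly 2.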
